A study of Mus musculus with 6 samples.

Results

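The clustered histone genes are the mouse genes whose symbol places them in 1 of the 4 histone gene clusters, from Hist1 to Hist4. GENCODE M21 lists 70 such genes, of which 62 had a row in the count files, among 39179 genes in all. The other 8 were not analysed here. They are the H3 genes Hist1h3d, Hist1h3f, Hist1h3g, Hist1h3h and Hist1h3i and the H2B genes Hist1h2bh, Hist1h2bm and Hist2h2bb. Of these 62 genes, 49 belonged to Hist1 on chromosome 13, 9 to Hist2 on chromosome 3, 3 to Hist3 on chromosome 11 and 1, Hist4h4, to Hist4 on chromosome 6. By product, 6 encoded the linker histone H1, 20 H2A, 16 H2B, 7 H3 and 13 H4, and 3 of the 62 were annotated as pseudogenes.

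RNA was sequenced from whole bone marrow of 6 mice that were about 3 months old when injected. All 6 had received 3 intraperitoneal injections of pI:PC, an inducer of interferon, at 10 µg/g, and marrow was taken 6 weeks later. The 3 MxCDX2 mice were RsCDX2::Mx1Cre, carrying both a human CDX2 coding sequence behind a loxP-flanked stop at Rosa26 and Cre under the interferon-inducible Mx1 promoter, which is active in blood cells and in other tissues. CDX2 is a homeobox transcription factor of the intestine that is ectopically expressed in many acute myeloid leukemias. The 3 control mice were each of another genotype, namely RsCDX2 without Cre, Mx1Cre without the knockin, and wild type, so no control genotype had a replicate. The mouse Cdx2 row, to which reads of the transgene can map, had 152 to 183 counts in the MxCDX2 mice and 0 to 4 in the controls.

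Histones package DNA into nucleosomes, and H1 binds the linker between them. Most clustered histone genes are replication-dependent: they are transcribed in S phase without introns, and their mRNAs end shortly after a conserved stem-loop in place of a poly(A) tail. Cells that leave the cell cycle, maturing red cell precursors among them, keep a set of polyadenylated clustered histone mRNAs, for which Hist1h2bc, Hist1h1c and Hist2h2aa1 are known. The libraries were made from poly(A)-selected RNA, so these counts chiefly report polyadenylated forms and not the stem-loop mRNAs that make up most histone message of dividing cells.

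The annotated 3′ ends of these genes were of several kinds. In GENCODE M21, 112 of 58797 protein-coding transcripts (0.190%) held a match to the histone stem-loop of 16 bases, and 41 of the 62 genes had at least 1 such transcript. The stem-loops of 4 genes to which the results below return are given here as DNA, 5′ to 3′, in windows of 30 bases with the stem-loop in capitals.
Hist1h1c: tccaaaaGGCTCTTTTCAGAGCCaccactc
Hist1h2ac: acccaaaGGCTCTTTTCAGAGCCcccactt
Hist1h4i: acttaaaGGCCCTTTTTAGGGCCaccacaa
Hist3h2ba: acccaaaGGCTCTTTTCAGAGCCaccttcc

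Replication-dependent mRNAs end a few bases after this element, but the models of these genes ran on for 840 bases in Hist1h1c, 2010 in Hist1h2ac, 330 in Hist1h4i and 169 in Hist3h2ba. Several of the longer models closed with a poly(A) signal, AATAAA or its variant ATTAAA, searched on the transcript strand within the last 40 bases. The final 30 bases of 4 such transcripts are printed with that signal in capitals.
Hist1h1c: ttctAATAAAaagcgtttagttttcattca
Hist1h4i: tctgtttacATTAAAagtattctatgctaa
Hist2h2be: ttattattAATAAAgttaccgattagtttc
Hist3h2ba: attAATAAAtttggttcaattttggccaca

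By these features, 17 of the 62 genes had a transcript with such a signal at its end, 9 had a long or spliced model without one, 19 had models ending within 100 bases of the stem-loop, and 17 were single exons in which no stem-loop was annotated. A gene was counted in the first of these kinds that any of its transcripts met. Hist2h2be and the spliced model of Hist1h2bc held no stem-loop at all. The annotation release used for counting may differ from GENCODE M21, and no match says only that these letters are not in the models read here.

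Clustered histone genes took a small part of each library, 0.0142% to 0.0359% of gene counts in the controls and 0.0078% to 0.0106% in the MxCDX2 mice. Counts were set to a common scale with edgeR's TMM factors and are called normalized counts below. The summed normalized count of all 62 genes was 8321 in the RsCDX2, 6770 in the Mx1Cre and 16266 in the wild-type control, and 3501, 4501 and 4514 in MxCDX2 mice 1, 2 and 3. The groups did not overlap, and the wild-type control stood well above the other controls. The mean was 10453 ± 5094 (SD, n = 3) in the controls and 4172 ± 581 (SD, n = 3) in the MxCDX2 mice, a log2 ratio of -1.33, or -0.85 without the wild-type control. A smaller share of the cells that make a transcript and less of it in each cell cannot be told apart in whole marrow.

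**Figure D1:**
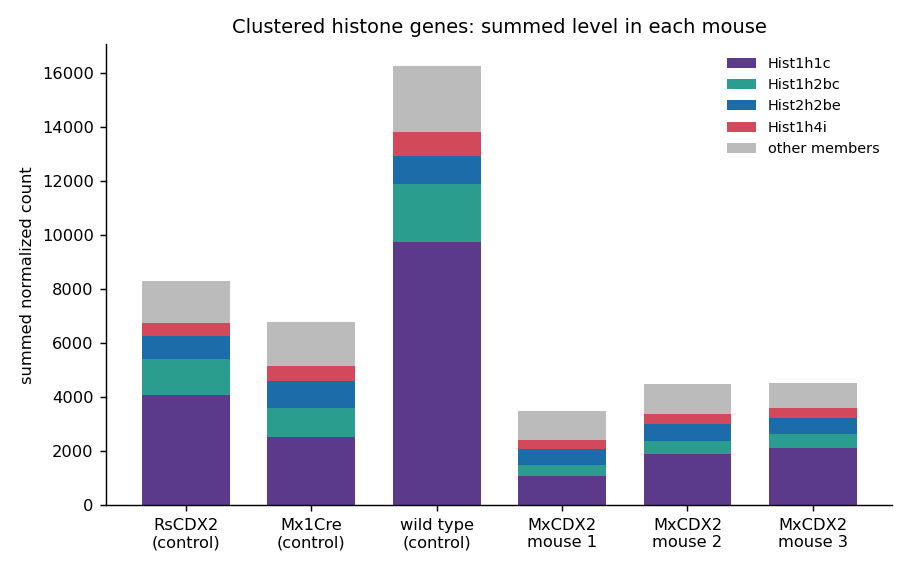
Summed normalized counts of the 62 clustered histone genes (vertical axis) in each of the 6 mice, with the 4 most counted genes in colour and the others in grey. The wild-type control reaches 16266, the other controls 8321 and 6770, and the MxCDX2 mice 3501 to 4514, and Hist1h1c is the largest block in every bar.

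The sum rested on few genes. Hist1h1c alone gave 37.5% to 59.9% of the clustered histone counts in the controls and 30.9% to 47.3% in the MxCDX2 mice. Together with Hist1h2bc, Hist2h2be and Hist1h4i it gave a mean of 80.8% and 74.8%, respectively. Per kb of exon, the mean control levels were 3496 normalized counts for Hist1h1c, 1308 for Hist1h2bc, 892 for Hist1h4i, 369 for Hist2h2be and 366 for Hist3h2ba, against a median of 29.7 over all 62 genes. For scale, H3f3b, which encodes the replacement histone H3.3 outside the clusters, stood at 9779 normalized counts per kb in the controls.

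By type, the summed H1 level was 5783 ± 3859 normalized counts in the controls and 1916 ± 534 in the MxCDX2 mice (SD, n = 3 each), a ratio of 0.33 that was 0.53 without the wild-type control. The ratio was 0.44 for H2B, 0.56 for H4, 0.61 for H3 and 0.62 for H2A, and without the wild-type control 0.51, 0.69, 0.78 and 0.75, so the order of the types rests on that mouse. By cluster it was 0.37 for Hist1, 0.62 for Hist2, 0.53 for Hist3 and 0.37 for Hist4, and 0.54, 0.65, 0.56 and 0.51 without that mouse. These ratios of sums were not tested, and the H1 ratio is mostly that of Hist1h1c. The H3 and H2B sums leave out the genes of GENCODE M21 that were not analysed.

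The comparison of the MxCDX2 with the control mice asks which genes changed after CDX2 was switched on in the marrow. It was made per gene with edgeR's quasi-likelihood test over the 15980 genes with enough counts, and a gene was said to have changed when its log2 fold change was beyond 1 in size and its Benjamini-Hochberg adjusted p was below 0.05. Of the 62 clustered histone genes, 38 had enough counts to be tested and 6 fell: Hist3h2ba, Hist1h2ac, Hist1h2bp, Hist1h2bc, Hist1h1e and Hist1h2be. These are 15.8% of the 38, whereas 9.03% of all tested genes were lower by the same rule. No clustered histone gene rose, against 4.59% of all genes. DESeq2 and limma called 0 higher as well, and DESeq2 called 7 lower, against 11.7% of all genes. Whatever the fold, 7 of the 38 genes were lower at an adjusted p below 0.05 in edgeR, as were 11.8% of all genes.

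The log2 fold changes leaned to one side. Of the 38 genes, 37 had a log2 fold change below 0, as had 49.9% of all tested genes, and the exception was Hist1h4j at 0.16 (adjusted p = 0.85, edgeR). The median was -0.87 over the 38 and 0.00 over all genes. The filter on low counts can itself favour this direction, since 8 of the 38 passed it in all control mice but not in all MxCDX2 mice, and 1 the other way round. Hist1h2bp, which fell, was among the 8. With every gene of at least 1 count kept, 53 of 55 clustered histone genes were below 0, with a median of -0.73, against 51.0% of 25488 genes. Scaling by total counts alone moved the median of all genes by 0.12, and 36 of the 38 were then below 0. Without the wild-type control 33 of the 38 were below 0, with a median of -0.57, against 47.2% of all genes, and the 5 above 0 were Hist1h4j, Hist1h4h, Hist1h2bj, Hist1h3a and Hist2h2ac. All MxCDX2 mice lay below all controls for 14 of the 38 genes, where 20.7% of all genes did.

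**Figure D2:**
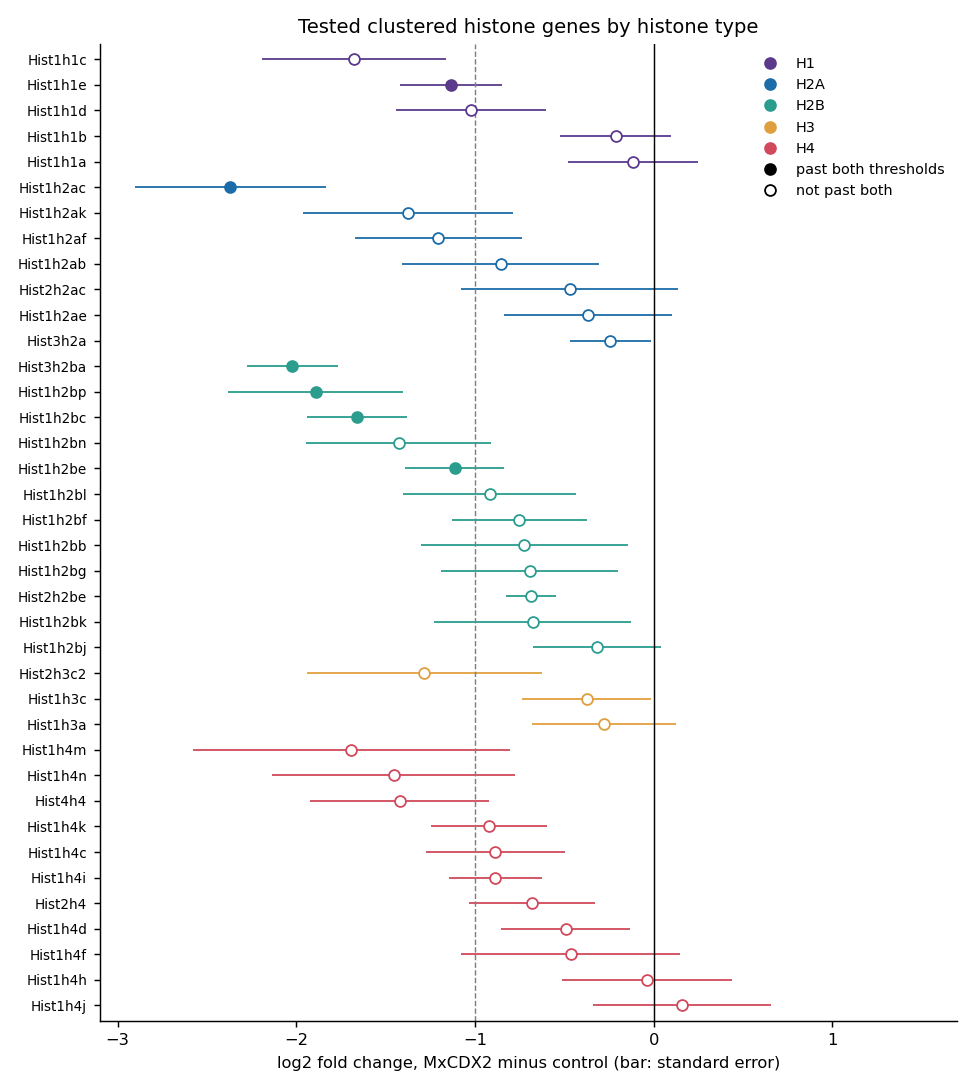
Log2 fold change of each of the 38 tested clustered histone genes (horizontal axis, MxCDX2 minus control, bars are standard errors), grouped and coloured by histone type. Filled points mark the 6 genes past both thresholds, the dashed line marks a log2 fold change of -1, and Hist1h4j at 0.16 is the only point right of 0.

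Among the linker histones, Hist1h1c (ENSMUSG00000036181, chr13:23738808-23740367, plus strand) was the most counted clustered histone gene. It encodes H1.2, a linker histone of both dividing and resting cells. Its normalized counts were 4083, 2538 and 9739 in the RsCDX2, Mx1Cre and wild-type controls, and 1081, 1903 and 2134 in MxCDX2 mice 1, 2 and 3. All MxCDX2 mice lay below all controls, and the wild-type control was the highest of the 6. The log2 fold change was -1.68 ± 0.52 (SE), with an adjusted p of 0.061 by edgeR that missed the threshold, and Hist1h1c was called with DESeq2 (adjusted p = 0.0035). Without the wild-type control the log2 fold change was -0.93.

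Hist1h1e (chr13:23620629-23622558, minus strand), which encodes the linker histone H1.4, fell by 1.13 ± 0.29 (SE) on the log2 scale (adjusted p = 0.034, edgeR). It had 74.1, 69.5 and 70.2 normalized counts in the controls and 26.5, 31.3 and 39.2 in the MxCDX2 mice. Here the wild-type control did not stand apart, and the groups did not overlap. The call rested on all 3 MxCDX2 mice and on the RsCDX2 and Mx1Cre controls, as it was lost when any of these was left out (adjusted p = 0.083 to 0.11). Its model overlaps that of Hist1h2be on the same strand, so reads in the overlap could not be given to either gene. The other tested H1 genes did not pass: Hist1h1d had a log2 fold change of -1.02 (adjusted p = 0.13), and Hist1h1b and Hist1h1a, the genes of H1.5 and H1.1, had -0.21 and -0.12. Hist1h1t, the testis-specific H1, had 11 counts over all mice and was not tested.

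Among the H2A genes, Hist1h2ac (chr13:23681467-23683948, minus strand) had the lowest log2 fold change of the 38. It had 67.7, 62.6 and 198 normalized counts in the RsCDX2, Mx1Cre and wild-type controls, and 18.0, 23.5 and 21.8 in the MxCDX2 mice. The MxCDX2 values lay close together below all controls, and the wild-type control again stood above the other controls. It fell by 2.37 ± 0.54 (SE) on the log2 scale (adjusted p = 0.024, edgeR), and its log2 fold change was -1.60 without the wild-type control (adjusted p = 0.016). The call was lost when any MxCDX2 mouse was left out. The remaining 6 tested H2A genes did not pass, with log2 fold changes from -1.37 for Hist1h2ak to -0.24 for Hist3h2a. Hist2h2aa1, the H2A gene known for a polyadenylated form, had 0 counts in every mouse. As only 10.6% of the windows of 50 bases in its transcripts were unique in the annotated transcriptome, and reads that mapped to several places were not counted, this says nothing about its expression.

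H2B held 4 of the 6 genes that fell and 12 of the 38 that were tested, where 9.03% of all tested genes fell. Hist3h2ba (ENSMUSG00000056895, chr11:58948920-58949533, plus strand), which encodes an H2B of the Hist3 cluster, had 199, 239 and 235 normalized counts in the controls and 55.1, 46.0 and 64.4 in the MxCDX2 mice. The groups were far apart and each was narrow, with means of 225 ± 22.0 and 55.2 ± 9.19 (SD, n = 3 each). It fell by 2.02 ± 0.26 (SE) on the log2 scale (adjusted p = 0.0037, edgeR), and kept this call whichever of the 6 mice was left out. It was the only clustered histone gene called when the fold change was tested against a log2 of 1.

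Hist1h2bc (ENSMUSG00000018102, chr13:23684199-23692908, plus strand), an H2B gene known for a polyadenylated transcript in differentiated cells, had 1323, 1055 and 2158 normalized counts in the RsCDX2, Mx1Cre and wild-type controls and 424, 494 and 517 in the MxCDX2 mice. Every MxCDX2 mouse was below every control by a wide margin. It fell by 1.66 ± 0.28 (SE) on the log2 scale (adjusted p = 0.0089, edgeR), and its log2 fold change was -1.29 without the wild-type control (adjusted p = 0.0057). Like Hist3h2ba, and unlike the other clustered histone genes, it kept its call whichever mouse was left out.

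Hist1h2be (chr13:23583670-23621124, minus strand) had 158, 171 and 182 normalized counts in the controls and 69.9, 102 and 64.4 in the MxCDX2 mice, and fell by 1.11 ± 0.28 (SE) on the log2 scale (adjusted p = 0.032, edgeR). This call was close to the threshold and was lost with scaling by total counts (adjusted p = 0.051) and with any mouse but MxCDX2 mouse 2 left out (adjusted p = 0.051 to 0.13). Hist1h2bp (chr13:21787461-21789213, plus strand) had only 26.8, 20.9 and 30.1 normalized counts in the controls and 11.7, 5.88 and 3.48 in the MxCDX2 mice. It fell by 1.89 ± 0.49 (SE) on the log2 scale (adjusted p = 0.037, edgeR), on few reads in every mouse, and the call was lost with any mouse but MxCDX2 mouse 1 left out (adjusted p = 0.066 to 0.12). Hist1h2bp was over the count filter in all 3 controls but in only 1 MxCDX2 mouse. With every gene of at least 1 count kept it missed the threshold (adjusted p = 0.053, edgeR).

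Hist2h2be (chr3:96221119-96223738, plus strand), the most counted gene of Hist2, had 857, 1017 and 1027 normalized counts in the controls and 594, 619 and 588 in the MxCDX2 mice. Its groups did not overlap and the MxCDX2 mice were nearly equal. The log2 fold change of -0.69 ± 0.14 (SE) had an adjusted p of 0.017 (edgeR) but was smaller than the required fold. Among the 7 other tested H2B genes, which did not pass, the log2 fold changes ran from -1.43 for Hist1h2bn to -0.32 for Hist1h2bj.

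**Figure D3:**
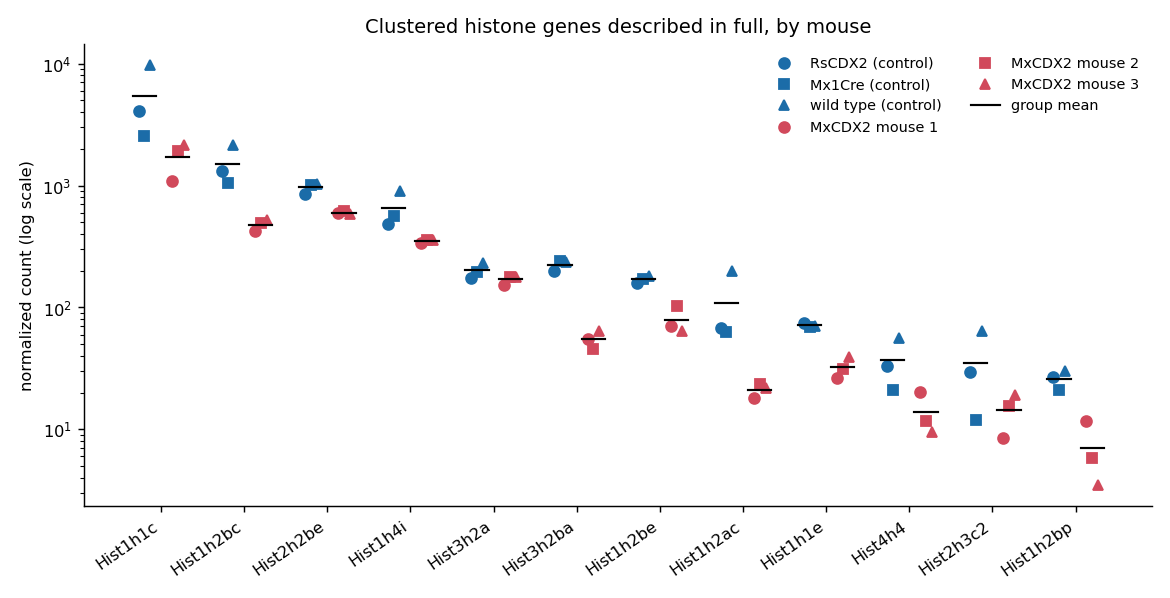
Normalized counts (vertical axis, log scale) of 12 clustered histone genes in each mouse, controls in blue and MxCDX2 mice in red, with a bar at each group mean. Hist3h2ba and Hist1h1e form tight, separate groups, while the wild-type control (blue triangle) is the highest point for each of the other genes.

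No tested H3 or H4 gene passed both thresholds, where 3 of the 7 H3 and 11 of the 13 H4 genes were tested. Over all tested genes 9.03% fell and 4.59% rose, so 0 calls among so few genes do not set these types apart. The H3 genes Hist1h3d, Hist1h3f, Hist1h3g, Hist1h3h and Hist1h3i were not among the genes analysed. The most counted H3 gene, Hist2h3c2, had 29.4, 11.9 and 64.7 normalized counts in the controls and 8.47, 15.7 and 19.2 in the MxCDX2 mice. These groups overlapped, with a log2 fold change of -1.28 ± 0.66 (SE, adjusted p = 0.21, edgeR) that was -0.46 without the wild-type control, and only 36.5% of its windows of 50 bases were unique. The other tested H3 genes, Hist1h3c and Hist1h3a, had log2 fold changes of -0.38 and -0.28.

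The most counted H4 gene was Hist1h4i (chr13:22040636-22041362, minus strand), with 482, 559 and 905 normalized counts in the controls and 339, 360 and 355 in the MxCDX2 mice. The MxCDX2 mice were nearly equal and lay below all controls, while the wild-type control stood high. Its log2 fold change was -0.89 ± 0.26 (SE, adjusted p = 0.055, edgeR) and -0.55 without the wild-type control. Hist4h4, the sole gene of its cluster, had 33.2, 20.9 and 56.5 normalized counts in the controls and 20.1, 11.8 and 9.58 in the MxCDX2 mice, a log2 fold change of -1.42 ± 0.50 (SE, adjusted p = 0.090, edgeR), or -0.95 without the wild-type control. The log2 fold changes of the 11 tested H4 genes ran from -1.69 to 0.16, with a median of -0.89, against -0.87 over the 38 tested genes.

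Of the 24 clustered histone genes that were not tested, 17 had at least 1 count, none with over 22 in any mouse, and 7 had 0 in every mouse. The median share of unique windows of 50 bases was 20.7% in these 24 genes and 60.2% in the 38 that were tested. The 7 genes at 0 were Hist1h2ao, Hist1h2ap, Hist1h2ba, Hist2h2aa1, Hist2h2aa2, Hist2h3b and Hist2h3c1. All but Hist1h2ba, the testis-specific H2B gene, had at most 20.3% unique windows, so their level could not be read from these counts.

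The 6 calls were also counted by kind of 3′ end. Among tested genes with a poly(A) signal at the end of a transcript, 3 of 12 fell, and among those with a long or spliced model without one, 3 of 8 fell. Of the 11 whose models end within 100 bases of the stem-loop, 0 fell. Of the 7 single exons without an annotated stem-loop 0 fell as well, where 9.03% of all tested genes did. Hist1h2bp, which fell, was counted with the signal kind through its spliced transcript. Its other transcript ends 38 bases after the stem-loop, so the first 0 depends on the order in which the kinds were assigned. The median log2 fold changes of these 4 kinds were -0.79, -1.08, -0.68 and -0.92 in the same order, all below 0. They also differed in depth, since the highest mean control level was 3496 normalized counts per kb for genes with a signal and 1308 for long models, but 148 and 136 for the other kinds. All 7 genes that averaged 100 normalized counts or more belonged to the first 2 kinds. Neither the difference between the kinds nor the part of depth in it was tested.

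**Figure D4:**
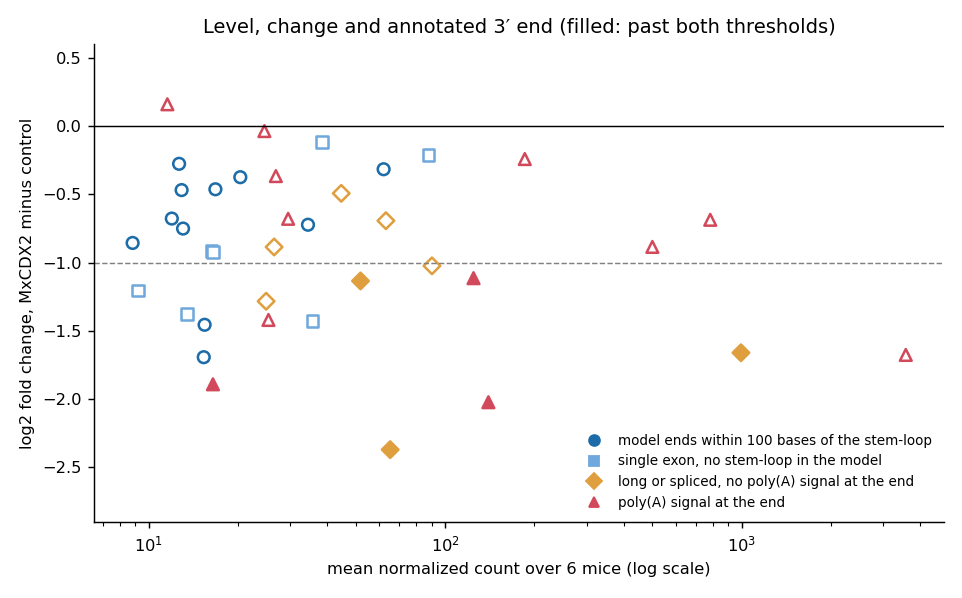
Log2 fold change (vertical axis, MxCDX2 minus control) against the mean normalized count over 6 mice (horizontal axis, log scale) for the 38 tested genes, by kind of annotated 3′ end. Filled symbols, the 6 genes past both thresholds, are triangles and diamonds only, and circles and squares stay below 100 normalized counts. A gene with a poly(A) signal at the end of any transcript is a triangle, as Hist1h2bp is.

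Histone genes often lie in head-to-head pairs that share the sequence between their starts. Among the clustered histone genes of GENCODE M21 there were 14 pairs with starts within 500 bases, and both genes were tested in 4 of them. Hist1h2ac and Hist1h2bc, whose starts lie 251 bases apart, both fell, with log2 fold changes of -2.37 and -1.66. In the other 3 pairs no gene passed both thresholds: the log2 fold changes were -0.47 and -0.69 for Hist2h2ac and Hist2h2be, -1.37 and -1.43 for Hist1h2ak and Hist1h2bn, and -0.37 and -0.69 for Hist1h2ae and Hist1h2bg. The members of a pair differed by 0.05 to 0.71 on the log2 scale.

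The 250 bases before the annotated start are given for Hist1h2ac, where they span the gap to Hist1h2bc, for Hist3h2ba, the gene with the firmest call, and for Hist1h1c, the most counted gene. The sequences are from RefSeq (GRCm38.p6), at chr13:23683960-23684209 (minus strand), chr11:58948661-58948910 (plus strand) and chr13:23738557-23738806 (plus strand), each read 5′ to 3′ toward its gene. Capitals mark CCAAT and the octamer ATTTGCAT on either strand, and TATAAA on the gene's strand.
Hist1h2ac: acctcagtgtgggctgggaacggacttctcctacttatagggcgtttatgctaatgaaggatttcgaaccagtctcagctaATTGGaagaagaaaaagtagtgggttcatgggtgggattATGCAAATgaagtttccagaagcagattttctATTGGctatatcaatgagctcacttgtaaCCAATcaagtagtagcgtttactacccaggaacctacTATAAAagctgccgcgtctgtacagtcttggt
Hist3h2ba: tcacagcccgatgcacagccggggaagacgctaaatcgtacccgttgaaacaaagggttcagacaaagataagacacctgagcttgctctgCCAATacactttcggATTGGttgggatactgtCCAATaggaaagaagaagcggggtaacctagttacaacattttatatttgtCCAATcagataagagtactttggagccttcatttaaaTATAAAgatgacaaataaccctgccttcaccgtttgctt
Hist1h1c: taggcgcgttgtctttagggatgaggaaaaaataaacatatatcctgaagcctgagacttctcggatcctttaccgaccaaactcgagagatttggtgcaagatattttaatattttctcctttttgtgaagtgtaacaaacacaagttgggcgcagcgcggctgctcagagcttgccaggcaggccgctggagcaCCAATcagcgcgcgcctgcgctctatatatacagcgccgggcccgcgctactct

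In windows of 300 bases, from 250 before to 50 after the start, 54 of the 62 genes had a RefSeq entry. The octamer, known from H2B promoters as a binding site of POU factors, was in 20.4% of these 54 windows and in 1.74% of all 32851 promoters in the table. It was found in 7 of 17 H2A and 4 of 13 H2B windows and in none of the other types. CCAAT was in 83.3% of the 54 and 37.4% of all promoters, and was present in every H1, H2A, H2B and H3 window but in 3 of 12 H4 windows. TATAAA was in 27 of the 54 windows and in 8.32% of all promoters. The letters AGATAA, a form of the GATA site, occurred 2 times before Hist3h2ba, where they are in lower case, and in 18.5% of the 54 windows against 11.2% of all promoters on either strand. TTTTAT, letters found in sites of caudal-type homeobox factors, was in 18.5% of the 54 and 16.0% of all promoters once matches that overlap TATAAA were set aside. Such a match, also in lower case, lies before Hist3h2ba. A match is a description of the letters and not evidence of binding.

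Along chromosome 13, the Hist1 genes fell into runs separated by more than 100 kb. The first run, from Hist1h2bl to Hist1h2br, held 9 tested genes with a median log2 fold change of -1.37, and 1 of them, Hist1h2bp, fell. The second run held 3 tested genes, with a median of -0.68 and no call. The third run, from Hist1h4h to Hist1h1a over 233 kb, held 19 tested genes with a median of -0.75, and 4 of them fell. Over all tested genes 9.03% fell, and no difference between the runs was tested. Neighbours did not move alike throughout, as Hist1h1c at -1.68 and Hist1h1a at -0.12 lie in the same run.

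**Figure D5:**
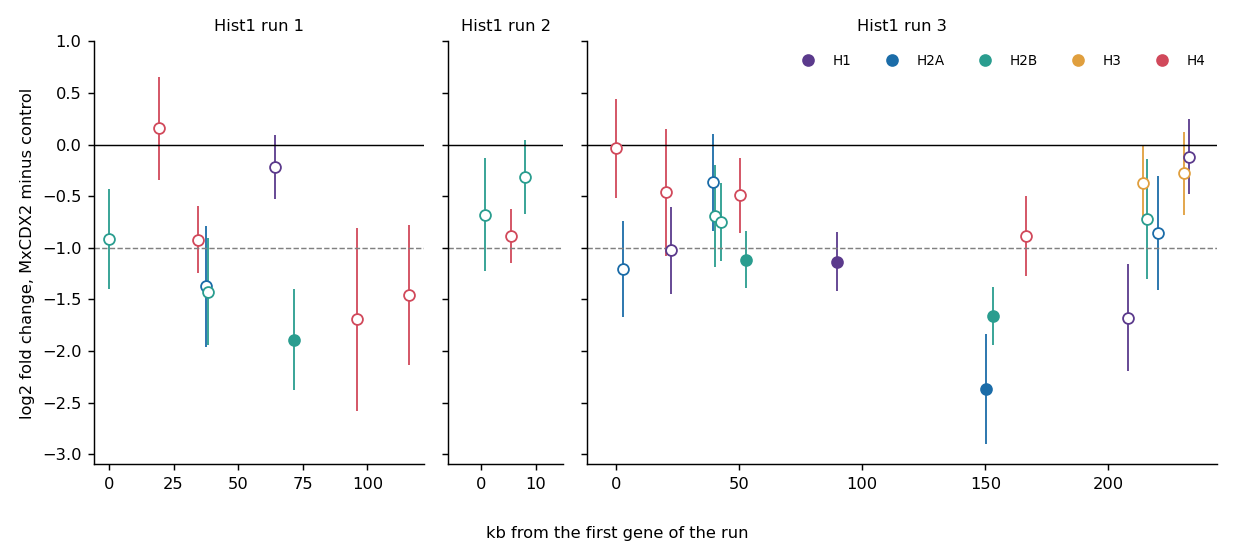
Log2 fold change (vertical axis, MxCDX2 minus control, bars are standard errors) of tested Hist1 genes against distance in kb from the first gene of each of 3 runs on chromosome 13, coloured by histone type. Filled points passed both thresholds: Hist1h2bp in run 1, and Hist1h2be, Hist1h1e, Hist1h2ac and Hist1h2bc in run 3.

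The protein-coding genes of Hist3 differed as well. Hist3h2a is an H2A gene on the same strand as Hist3h2ba, with the pseudogene Hist3h2bb-ps between them. Hist3h2a had 176, 194 and 233 normalized counts in the controls and 153, 178 and 179 in the MxCDX2 mice. Its groups overlapped, with a log2 fold change of -0.24 ± 0.23 (SE, adjusted p = 0.49, edgeR). The ratio of Hist3h2ba to Hist3h2a was 1.13, 1.24 and 1.01 in the controls and 0.361, 0.258 and 0.359 in the MxCDX2 mice, without overlap. The mean log2 ratio was lower by 1.80 in the MxCDX2 mice (2-sided exact permutation p = 0.10, adjusted p = 0.10 over 2 ratios), and 0.10 is the smallest p that 3 against 3 mice allow. This ratio reuses the Hist3h2ba values, whose groups were already known to be apart, so it is no separate support for that fall.

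Outside the clusters, 11 genes of replacement and variant histones were examined, most of which are polyadenylated and made through the whole cell cycle. H2afy2, which encodes the macroH2A2 variant, rose from 37.1, 33.8 and 67.5 normalized counts in the controls to 114, 235 and 225 in the MxCDX2 mice, by 2.05 ± 0.43 (SE) on the log2 scale (adjusted p = 0.018, edgeR). No other gene of this list passed both thresholds. H2afy, the gene of macroH2A1, named after its values were seen, had a log2 fold change of 0.80 (adjusted p = 0.0053). H3f3a and H3f3b, which encode H3.3, had -0.41 and -0.33, H2afz, the gene of H2A.Z, had -0.26 and H2afx, the gene of the DNA damage-responsive H2A.X, had -0.48; their adjusted p-values were 0.071, 0.17, 0.16 and 0.13.

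H1f0 encodes the replacement linker histone of differentiated cells. Its normalized counts were 1651, 1431 and 2792 in the controls and 1769, 6348 and 4792 in the MxCDX2 mice, so the groups overlapped, with a log2 fold change of 1.14 ± 0.48 (SE, adjusted p = 0.14, edgeR). The ratio of Hist1h1c to H1f0 was 2.47, 1.77 and 3.49 in the controls and 0.611, 0.300 and 0.445 in the MxCDX2 mice. These ratios did not overlap, and the mean log2 ratio was lower by 2.52 in the MxCDX2 mice (2-sided exact permutation p = 0.10, adjusted p = 0.10 over 2 ratios, the smallest possible). The ratios reuse the Hist1h1c values, in which all MxCDX2 mice already lay below all controls, so they give no separate support.

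Of the 16 tested genes for transcription and 3′ end processing of histone mRNA, 0 passed both thresholds in edgeR. Slbp, whose product binds the stem-loop, had 8277, 8776 and 5778 normalized counts in the controls and 5875, 4416 and 5329 in the MxCDX2 mice, a log2 fold change of -0.55 ± 0.19 (SE, adjusted p = 0.083, edgeR). Of the 16 histone chaperone genes none passed the fold threshold, while Chaf1b (log2 fold change -0.75, adjusted p = 0.0041) and Asf1a (-0.54, adjusted p = 0.017), named after their values were seen, passed the p threshold alone. Of 28 genes of DNA replication and S phase, 2 fell (7.14%, against 9.03% of all tested genes) and none rose, while 8 were lower at an adjusted p below 0.05 whatever the fold (28.6%, against 11.8% of all genes). Ccne1, which encodes cyclin E1, fell by 1.55 on the log2 scale (adjusted p = 0.0070), and Rrm2, a subunit of ribonucleotide reductase, fell by 1.09 (adjusted p = 0.012). The median log2 fold change of these 28 genes was -0.23.

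The cell makeup of the marrow differed between the groups. Of 12 erythroid marker genes, all 12 fell, and their summed normalized count was 1931338 to 2285620 in the controls and 55753 to 220473 in the MxCDX2 mice. All 7 monocyte marker genes rose, and 4 of 8 neutrophil and 4 of 8 B cell markers fell. Over all tested genes 9.03% fell and 4.59% rose. The 7 megakaryocyte markers summed to 35566 in the RsCDX2, 26109 in the Mx1Cre and 299187 in the wild-type control, against 11702 to 15502 in the MxCDX2 mice, 2 of the 7 fell, and the wild-type control was also the one highest in Hist1h1c, Hist1h2bc, Hist1h2ac and Hist1h4i. That mouse was highest too in the sums of the T and NK cell markers (8847, against 3984 and 3686 in the other controls) and of the stem and progenitor markers (17377, against 7985 and 7236). Of these markers, 2 of 7 and 2 of 6 fell. It was the lowest control in the sums of the B cell markers (18588, against 33112 and 47868) and the neutrophil markers (1552136, against 2429621 and 2026642). The same held for the monocyte markers (57979, against 72187 and 73366). No marker of these lists was at 0 in all mice. The part of these shifts in the histone results was not tested. Without the wild-type control, Hist3h2ba, Hist1h2bc, Hist1h2ac and Hist1h1e still fell, with log2 fold changes of -1.97, -1.29, -1.60 and -1.13.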

How the data were processed

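Bone marrow RNA of 3 MxCDX2 and 3 control mice was sequenced from stranded poly(A)-selected libraries. The authors aligned reads to GRCm38 with STAR 2.5 and deposited raw counts per gene from HTSeq 0.6.1; the strand setting of counting is not given in the sources used here, and reads mapped to several places were not counted. Gene counts summed to 38646101 to 49899650 per mouse. Reads outside genes (9.22% to 14.1%) and ambiguous reads (2.99% to 3.16%) were left out of library sizes. Symbols, positions and transcripts were taken from GENCODE M21, which may differ from the release used for counting.

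Counts were tested with edgeR 4.0.16 (filterByExpr, TMM, quasi-likelihood F test, Benjamini-Hochberg over 15980 genes) in R 4.3.3; SE is the log2 fold change over the square root of F. The thresholds were an absolute log2 fold change over 1 and an adjusted p below 0.05. Normalized counts are counts scaled to the mean effective library. The test was checked on simulated counts. Alternatives used DESeq2 1.42.0, limma 3.58.1, other scalings, filters and thresholds, a block, and each mouse left out. P-values cover the spread between mice, and each control is of another genotype.

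The clustered histone genes and all lists were chosen with earlier results of these data known. Values by mouse are given for every clustered histone gene past both thresholds, for the tested gene of highest mean count in each cluster and type, and for genes known to be polyadenylated. Outside the clusters, H1f0, H2afz, H2afx, H3f3a, H3f3b, Slbp and up to 3 called genes a list are named. Figures were drawn with matplotlib.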

Additional observations from a re-analysis of the deposited data

How the results depend on the processing

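The count of clustered histone genes that fell, 6 as reported, was 1 when the fold change was tested against a log2 of 1 (Hist3h2ba), 2 at an adjusted p below 0.01 (Hist3h2ba and Hist1h2bc), and 2 to 4 with 1 mouse left out. The count over all genes moved too. It was 1443 of 15980 as reported, 372 against a log2 of 1, 597 at an adjusted p below 0.01, and 694 to 1482 with 1 mouse left out. It was 2 without MxCDX2 mouse 3, 3 without mouse 1 or mouse 2, all among the 6, and 4 without any one control, including Hist1h4i without the RsCDX2 and Hist1h1c without the Mx1Cre control. The number that rose was 0 in every alternative run. Other scalings, filters and tools gave 5 to 7, and 1213 to 1876 over all genes. DESeq2 added Hist1h1c to the 6, and keeping every gene with at least 1 count gave 5, namely Hist1h1c and 4 of the 6, without Hist1h1e and Hist1h2bp. The log2 ratio of the summed level stayed between -1.56 and -0.85 with 1 mouse left out. None of 190 alternative values for the 12 genes given by mouse reversed direction, while 33 lost and 5 gained the call. The values at an adjusted p below 0.01 and against a log2 of 1 repeat the main log2 fold change, so they could not reverse. In addition, 6 of the 12 genes were picked because they fell. The labels number the MxCDX2 mice but not the controls, so no pairing is known; with the replicate number as a block, 4 fell, of which 3 are among the 6 and 1 is Hist1h1c, while Hist1h1e, Hist1h2be and Hist1h2bp missed the threshold (adjusted p = 0.062, 0.051 and 0.054), and across genes every mouse correlated best with its own number (0.16, 0.29 and 0.18), as a hint only. Of the 38 tested genes, 31 had a mean below 100 normalized counts, 3 of the 6 that fell among them.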
